A study of Sus scrofa with 10 samples.

Results

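Glutathione transferases and the enzymes that make and recycle glutathione were followed in pig liver through 10 symbols: the transferases *GSTA1*, *GSTA2*, *GSTA4*, *GSTP1*, *GSTO1*, *GSTK1* and *MGST1*, both subunits of glutamate-cysteine ligase (*GCLC* and *GCLM*) and glutathione reductase (*GSR*). A member was read from the probe sets whose annotation gives its symbol and no other, and its value is the mean of those probe sets that average at least 4 on the log2 scale over the animals. By this rule 8 of the 10 symbols were measured, with 12 of their 18 probe sets, among 4730 genes tested. No probe set carried the symbol *GSTA2* or *GSTP1* alone, so neither gene is described here. The members were picked by symbol, with earlier results of these data known.

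Liver RNA of 10 female pigs, 5 of group H and 5 of group L, was measured with the Porcine GeneChip of Affymetrix, each animal on its own array. All animals came from 1 backcross, in which sons of Iberian boars and Landrace sows were mated to Landrace sows, and all were fed under the same management and slaughtered at a similar age. The groups are the extremes of the first principal component of carcass traits and muscle fatty acids: H animals had more polyunsaturated fatty acids in the Longissimus dorsi muscle, and L animals more saturated and monounsaturated ones. The animals were thus chosen on carcass and muscle traits and not on a liver trait, none carried a treatment, and some sibs were placed in opposite groups. The sources used here do not say which animals were related.

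Glutathione is a small peptide of glutamate, cysteine and glycine that keeps the thiols of the cell reduced, and hepatocytes make and export much of what the body uses. Glutamate-cysteine ligase catalyses the first and rate-limiting step of its synthesis, the transferases join it to reactive electrophiles so that these can be exported, and glutathione reductase returns the oxidised form to the reduced one with NADPH. Several transferases also act on products of lipid peroxidation, which arise from polyunsaturated fatty acids. The comparison of H with L asks whether the liver RNA of these enzymes differed between pigs chosen for the fatty acids of their muscle.

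None of the 8 members differed between H and L beyond the spread between animals, 4 were higher and 4 lower in H, and the groups overlapped for every member. What set the members apart from each other was how much they varied from animal to animal. The array signal of *GSTA4* ranged over 10.3-fold, whereas that of *GSTO1* and *MGST1* ranged over 1.26-fold and 1.27-fold in the same 10 livers. Each of these was read from 1 probe set. No pair of members passed the test of co-variation over the animals either, and the subunits of glutamate-cysteine ligase had a Pearson's r of 0.16.

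**Figure D1:**
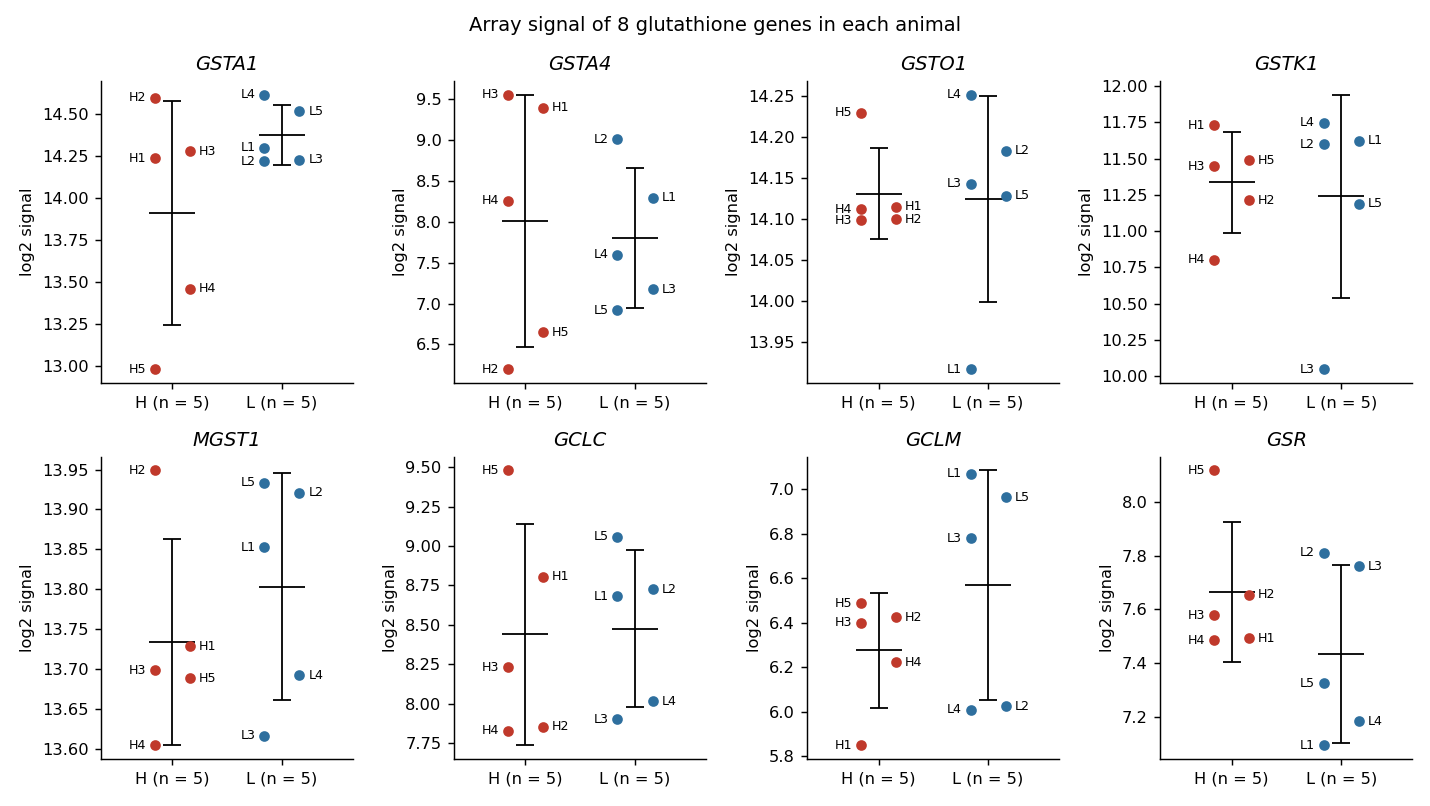
Log2 array signal of the 8 measured members in each animal, H in red and L in blue, with the mean (long bar) and the SD (short bars) of 5 animals per group. The vertical axes differ between genes: the *GSTA4* panel runs from 6.19 to 9.55 and the *GSTO1* panel only from 13.92 to 14.25, and in every panel H and L overlap.

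Among the transferases, *GSTA1* is the main soluble alpha-class enzyme of liver, with peroxidase activity towards lipid hydroperoxides. Its log2 signal was 14.24, 14.60, 14.28, 13.46 and 12.98 in H1 to H5 and 14.30, 14.22, 14.23, 14.62 and 14.52 in L1 to L5. The L animals lay close together, while H4 and H5 were below all other animals and H2 was next to the highest. Group means were 13.91 ± 0.67 in H against 14.38 ± 0.18 in L (SD, n = 5 per group), a log2 difference of -0.47 (SE 0.28, limma adjusted p = 0.985), with a 95% confidence interval from -1.08 to 0.15. This was the largest difference of the 8 members. It was -0.23 when H5 was left out and -0.64 without H2. The SD of the H group was 0.48 without H5, and the difference in spread between the groups was not tested.

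*GSTA4* is the alpha-class transferase best known for conjugating hydroxynonenal, an aldehyde formed when polyunsaturated fatty acids are oxidised. Its log2 signal was 9.39, 6.19, 9.55, 8.26 and 6.65 in H1 to H5 and 8.29, 9.01, 7.17, 7.60 and 6.92 in L1 to L5. Both the highest and the lowest animal were in H, and the L animals lay between them. The H animals averaged 8.01 ± 1.54 and the L animals 7.80 ± 0.86 (SD, n = 5 per group), and the log2 difference was 0.21 (SE 0.70, limma adjusted p = 0.985). Its 95% confidence interval ran from -1.34 to 1.76, the widest of the members, so that a difference of 2-fold in either direction lies within it. The sign of the difference turned when H1 (-0.14), H3 (-0.18) or L5 (-0.01) was left out. This signal comes from 1 probe set, and the other probe set of *GSTA4* stood at 2.19 on all 10 arrays. Whether the wide range belongs to the RNA or to the probe set was not tested.

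*GSTO1*, the omega-class transferase, which also reduces dehydroascorbate and works as a thioltransferase, had the smallest SD of the members. Its log2 signal was 14.12, 14.10, 14.10, 14.11 and 14.23 in H1 to H5 and 13.92, 14.18, 14.14, 14.25 and 14.13 in L1 to L5. In H only H5 stood off from 4 nearly equal animals, and in L the animal L1 was the lowest of all 10. Group means were 14.13 ± 0.06 in H against 14.12 ± 0.13 in L (SD, n = 5 per group), a log2 difference of 0.01 (SE 0.08, limma adjusted p = 0.999). The 95% confidence interval, from -0.17 to 0.18, was the narrowest of the members. Without L1 the SD over the animals was 0.06 instead of 0.09, and the difference was -0.05. The signal comes from 1 probe set in the upper range of the arrays, each of which reached at least 15.86, and whether it follows the amount of RNA in proportion there was not tested, so its narrow range and interval hold for the array signal and not for the RNA itself.

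*GSTK1*, the kappa-class transferase of mitochondria and peroxisomes, had a log2 signal of 11.73, 11.21, 11.45, 10.80 and 11.49 in H1 to H5 and 11.62, 11.60, 10.05, 11.75 and 11.19 in L1 to L5. The animal L3 was the lowest and L4 the highest, so L held both ends of the range. The H animals averaged 11.34 ± 0.35 and the L animals 11.24 ± 0.70 (SD, n = 5 per group), a log2 difference of 0.10 (SE 0.31, limma adjusted p = 0.985). Without L3 the SD of the L group fell from 0.70 to 0.24, the SD over the animals from 0.52 to 0.31, and the difference became -0.20.

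*MGST1* is a membrane-bound transferase of the endoplasmic reticulum and outer mitochondrial membrane that also reduces lipid hydroperoxides. Its log2 signal was 13.73, 13.95, 13.70, 13.60 and 13.69 in H1 to H5 and 13.85, 13.92, 13.62, 13.69 and 13.93 in L1 to L5. In H, 4 animals lay between 13.60 and 13.73, with H4 the lowest of all 10, and H2 was the highest. Group means were 13.73 ± 0.13 in H against 13.80 ± 0.14 in L (SD, n = 5 per group), and the log2 difference was -0.07 (SE 0.09, limma adjusted p = 0.985; 95% confidence interval from -0.28 to 0.14). It was -0.12 without H2 and -0.04 without L5. Like that of *GSTO1*, this signal comes from 1 probe set in the upper range of the arrays.

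For the synthesis of glutathione, *GCLC* encodes the catalytic subunit of glutamate-cysteine ligase. Its log2 signal was 8.80, 7.85, 8.23, 7.83 and 9.48 in H1 to H5 and 8.68, 8.72, 7.90, 8.01 and 9.06 in L1 to L5. High and low animals were found in both groups, with H5 and L5 the highest and H4 and H2 the lowest. The H animals averaged 8.44 ± 0.70 and the L animals 8.48 ± 0.50 (SD, n = 5 per group), a log2 difference of -0.04 (SE 0.34, limma adjusted p = 0.997; 95% confidence interval from -0.80 to 0.73). The difference lay between -0.30 without H5 and 0.12 without H4, and its sign turned in 6 of the 10 fits that leave out 1 animal.

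*GCLM*, the modifier subunit, which lowers the amount of glutamate the enzyme needs and weakens its inhibition by glutathione, had a log2 signal of 5.85, 6.43, 6.40, 6.22 and 6.49 in H1 to H5 and 7.07, 6.02, 6.78, 6.01 and 6.96 in L1 to L5. The animals L1, L3 and L5 were above all H animals, and L2 and L4 were below all H animals but H1. Group means were 6.28 ± 0.26 in H against 6.57 ± 0.52 in L (SD, n = 5 per group), a log2 difference of -0.29 (SE 0.23, limma adjusted p = 0.985). The 95% confidence interval ran from -0.81 to 0.23, and the difference was -0.17 without L1 and -0.43 without L4.

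*GSR*, which recycles oxidised glutathione, had a log2 signal of 7.49, 7.65, 7.58, 7.49 and 8.12 in H1 to H5 and 7.09, 7.81, 7.76, 7.18 and 7.33 in L1 to L5. H5 was the highest animal, and L1, L4 and L5 were below all H animals. The H animals averaged 7.67 ± 0.26 and the L animals 7.43 ± 0.33 (SD, n = 5 per group), and the log2 difference was 0.23 (SE 0.18, limma adjusted p = 0.985; 95% confidence interval from -0.16 to 0.62). All 5 H animals were above the mean of L. Without H5 the other 4 H animals had an SD of 0.08 and the difference was 0.12. In the 2 probe sets averaged here these 4 animals ran from 9.47 to 9.90 and from 5.27 to 5.69. The small SD thus holds for the mean and not for either probe set.

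**Figure D2:**
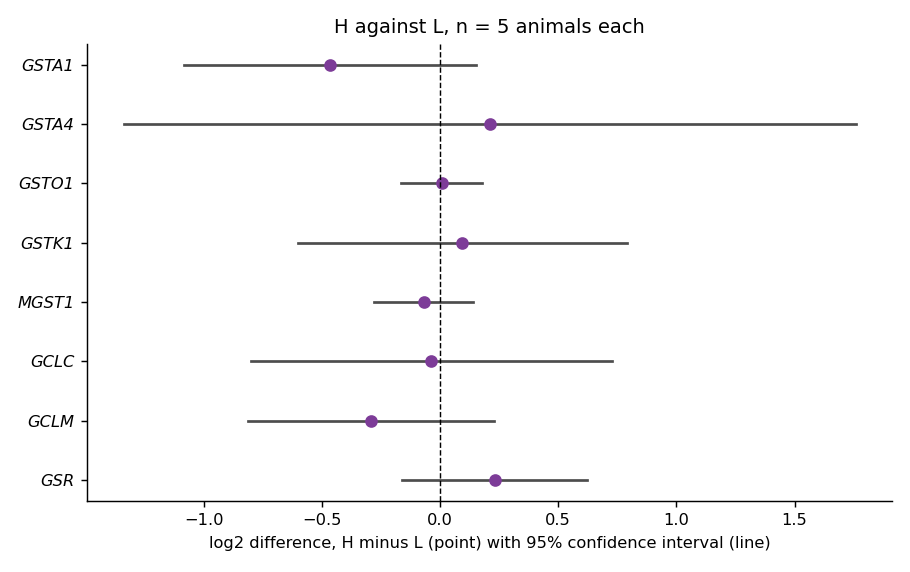
Difference in log2 signal between H and L for each member (point) with its 95% confidence interval from limma (line), 5 animals per group. Every interval includes 0, the widest is that of *GSTA4* (-1.34 to 1.76) and the narrowest that of *GSTO1* (-0.17 to 0.18).

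Read against all genes, the comparison of H with L called 0 of the 8 members after limma's adjustment over all genes, where 0.0% of the 4730 genes were called. At an unadjusted p under 0.05 in limma it called 0 members and 125 genes (2.64%), of which 38 were higher and 87 lower in H. The groups did not overlap for 0 members and for 17 genes (0.359%). At these shares fewer than 1 of any 8 genes would be called on average, so the counts of 0 say nothing particular of the members. The median size of the difference was 0.15 on the log2 scale over the members and 0.10 over all genes. The share of all genes higher in H was 37.2%, with a median difference of -0.04.

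The spread between animals, taken as the SD of the log2 signal over all 10, differed more between members. The SD was above the median of all genes (0.22) for 6 of the 8 members and above their upper quartile (0.32) for 5, namely *GSTA4*, *GCLC*, *GSTK1*, *GSTA1* and *GCLM*. *GSTA4* had an SD of 1.18, higher than that of 99.3% of all genes, and ranked at 35 of 4730. The SD of *GCLC* was 0.57, that of *GSTK1* 0.52 and that of *GSTA1* 0.52, with 94.1%, 92.7% and 92.6% of genes below them. Over the animals *GCLC* ranged by 3.14-fold from H4 to H5, *GSTK1* by 3.25-fold from L3 to L4 and *GSTA1* by 3.11-fold from H5 to L4. *GCLM* and *GSR* were intermediate, with an SD of 0.41 and 0.31 and ranges of 2.33-fold and 2.04-fold. The value of *GSR* averages 2 probe sets, and the brighter had an SD of 0.18 and the dimmer one of 0.49. *GSR* thus lies above the median of all genes by its mean and its dimmer probe set, but not by its brighter one. At the other end, 16.3% of genes had a lower SD than *MGST1* (0.13) and 5.37% a lower SD than *GSTO1* (0.09).

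The SD of array values changes with the signal, so each member was also set beside the genes whose mean lies within 0.5 of its own on the log2 scale. Among 66 such genes 97.0% had a lower SD than *GSTA1*, and among 67 only 11.9% had a lower SD than *GSTO1*, at a similar mean signal. The value of *GSTA1* averages a probe set at 14.8 (SD 0.28) and a dimmer one at 13.49 (SD 0.78). That of *GSTO1* is 1 probe set, so this contrast is not like for like. *GSTA4* was above 99.8% of 850 genes, *GSTK1* above 96.0% of 276 and *GCLC* above 95.3% of 766. *GCLM* was above 81.8% of 747 genes, *GSR* above 72.3% of 839 and *MGST1* above 42.0% of 88. The share given for *GSR* holds for the mean of its probe sets and not for its brighter one. The spread of *GSTA1* and *GSTK1* rests in part on single animals, since the SD of *GSTA1* over the animals fell from 0.52 to 0.34 without H5 and that of *GSTK1* to 0.31 without L3. For *GSTA4* the SD remained at 1.08 or more whichever animal was left out.

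**Figure D3:**
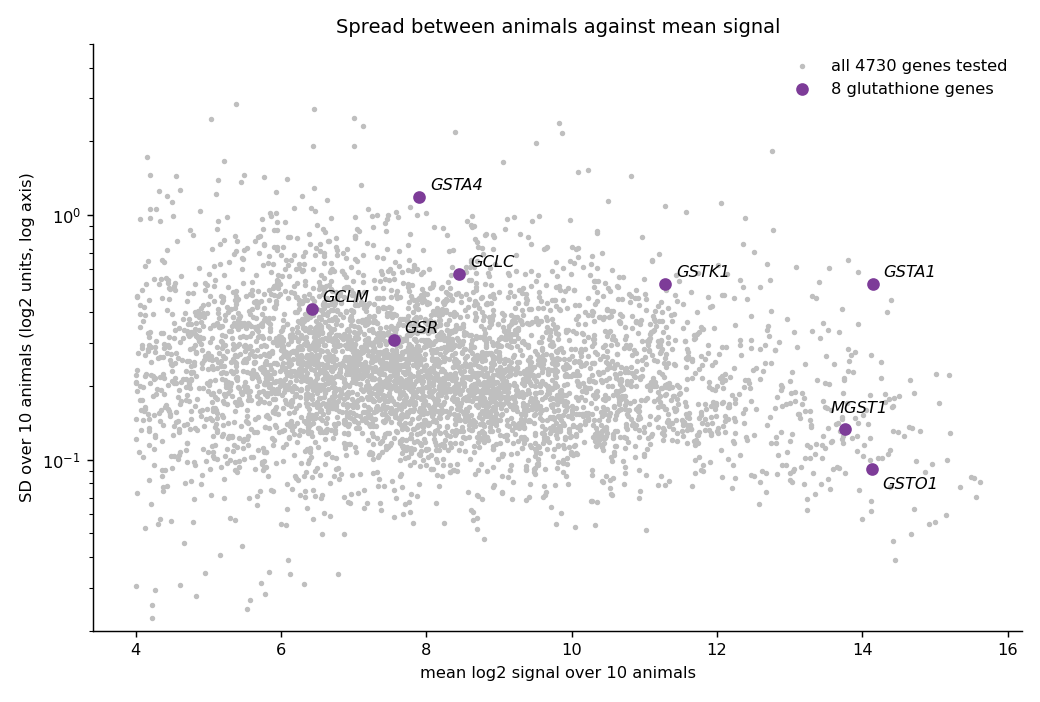
SD of the log2 signal over 10 animals (log axis) against its mean for all 4730 genes tested (grey) and the 8 members (purple). *GSTA4* (SD 1.18) and *GSTA1* (SD 0.52) lie near the upper edge of the genes of similar signal, and *GSTO1* (SD 0.09) lies among the lower ones.

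For 3 members the array holds more than 1 probe set above the filter, which gives a further reading of the same RNA in the same animal. The 3 probe sets of *GCLC* correlated with each other with r of 0.96, 0.91 and 0.81 over the 10 animals, and each had its highest value in H5. Their differences between H and L were 0.06, -0.01 and -0.16, so they disagreed in sign within their errors (SE 0.34, 0.38 and 0.35). The pair of probe sets of *GSTA1* correlated with r = 0.96, but not with the same range: the brighter ran from 14.13 in H5 to 15.00 in L4 (SD 0.28), and the dimmer from 11.83 in H5 to 14.27 in H2 (SD 0.78), with a slope of 2.67 of the dimmer on the brighter. Their differences were -0.25 (SE 0.16) and -0.68 (SE 0.41), and limma's adjusted p was 0.991 for both. The brighter one lies in the upper range of the arrays, and whether its signal follows the RNA in proportion there was not tested. The dimmer one is annotated to a further transcript beside that of *GSTA1*, so its signal may include another gene. The value of *GSTA1* is uncertain on both counts. The pair of probe sets of *GSR* correlated less, with r = 0.58, and differed between H and L by 0.08 (SE 0.12) and 0.39 (SE 0.27). These correlations are between probe sets that share RNA and array and carry no test. The 6 probe sets left out had means between 2.19 and 2.32, at or near the lowest value of the arrays.

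**Figure D4:**
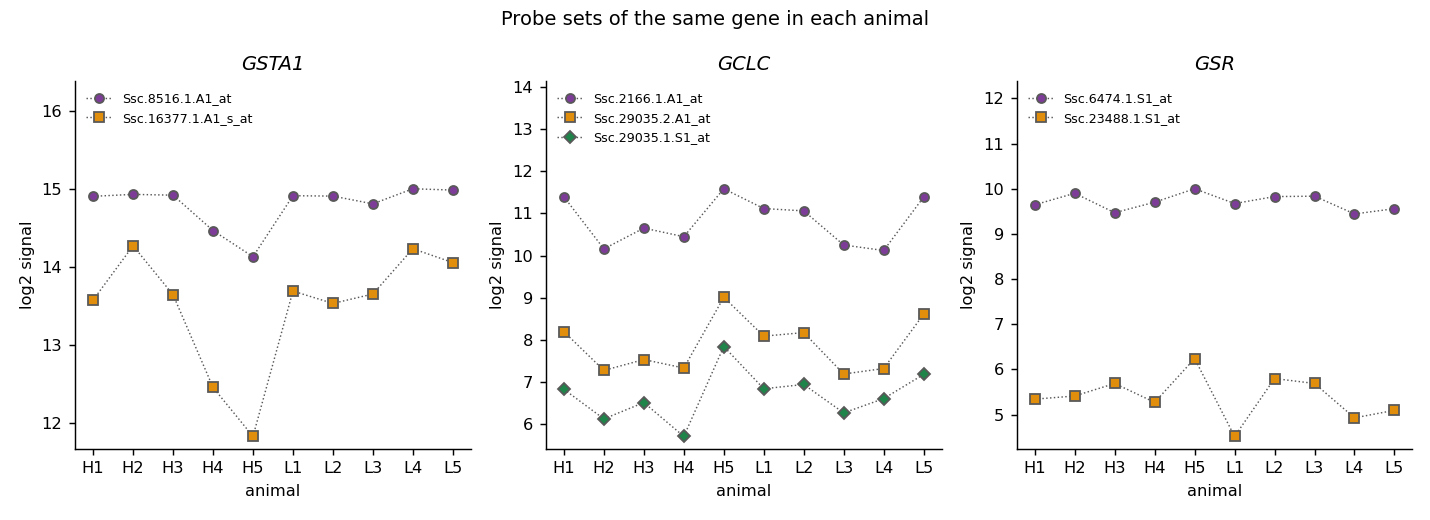
Log2 signal of each probe set used for *GSTA1*, *GCLC* and *GSR* in the 10 animals, with 1 marker per probe set; the dotted lines only join values of the same probe set. The *GCLC* probe sets all peak in H5, the *GSTA1* probe sets fall together in H4 and H5 by different amounts, and the dimmer *GSR* probe set is lowest in L1.

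The co-variation of the members was examined over all 28 pairs. Pearson's r ran from -0.60 to 0.50, with 15 positive and 13 negative pairs, and 0 pairs passed the permutation test at an adjusted or an unadjusted p under 0.05. The smallest adjusted p was 0.849 for Pearson's r and 0.872 for Spearman's rho. No pair reached an absolute r of 0.7, which 4.48% of all pairs of genes did over the same animals. The median absolute r was 0.24 over the members and 0.27 over all gene pairs. With 10 animals r is loosely set, and 13 of the 28 pairs changed sign when 1 animal was left out.

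*GCLC* and *GCLM* form 1 enzyme, and their RNA had r = 0.16 and rho = 0.13 (permutation p = 0.651 and 0.733; adjusted 0.861 and 0.872). The r ran from -0.01 without L5 to 0.31 without H1, was 0.16 after centring of each group, and was 0.11 without H4 and H5, which lie farthest from the median of *GCLC*. L5 was high for both subunits and H5 was the highest of all for *GCLC* but near the middle for *GCLM*. The alpha-class transferases *GSTA1* and *GSTA4* had r = 0.07 (permutation p = 0.858, adjusted 0.952) and rho = -0.14 (permutation p = 0.707, adjusted 0.872), which became -0.71 for r without H4 and H5. The relation between these members thus depended on the animals included.

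*GSR* and *GSTA1* gave the lowest value, with r = -0.60 and rho = -0.61 (permutation p = 0.0736 and 0.0683; adjusted 0.849 and 0.872). H5 was highest in *GSR* and lowest in *GSTA1*, and r was -0.19 without that animal, -0.21 without H5 and L1, and -0.51 after centring of each group. In L, which does not hold H5, the genes also ran against each other: L2 had the highest *GSR* and the lowest *GSTA1* of its group, and L4 the highest *GSTA1* and the next to lowest *GSR*. *GSTA1* and *MGST1* gave the highest value, with r = 0.50 and rho = 0.55 (permutation p = 0.147 and 0.104; adjusted 0.849 and 0.872), and r was 0.32 without H4 and H5. *GCLM* and *GSTO1* had r = -0.55 and rho = -0.32 (permutation p = 0.098 and 0.367; adjusted 0.849 and 0.872). The animal L1 is the highest for *GCLM* and the lowest for *GSTO1*, and r was -0.21 without it and -0.39 without H1 and L1. *GSR* and *GSTO1* had r = 0.49 and rho = 0.35 (permutation p = 0.145 and 0.331; adjusted 0.849 and 0.872), and r ran from 0.14 without L1 to 0.86 without L4, and was -0.36 without H5 and L1. With *GSR* read from its brighter probe set alone, r of this pair was 0.10.

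**Figure D5:**
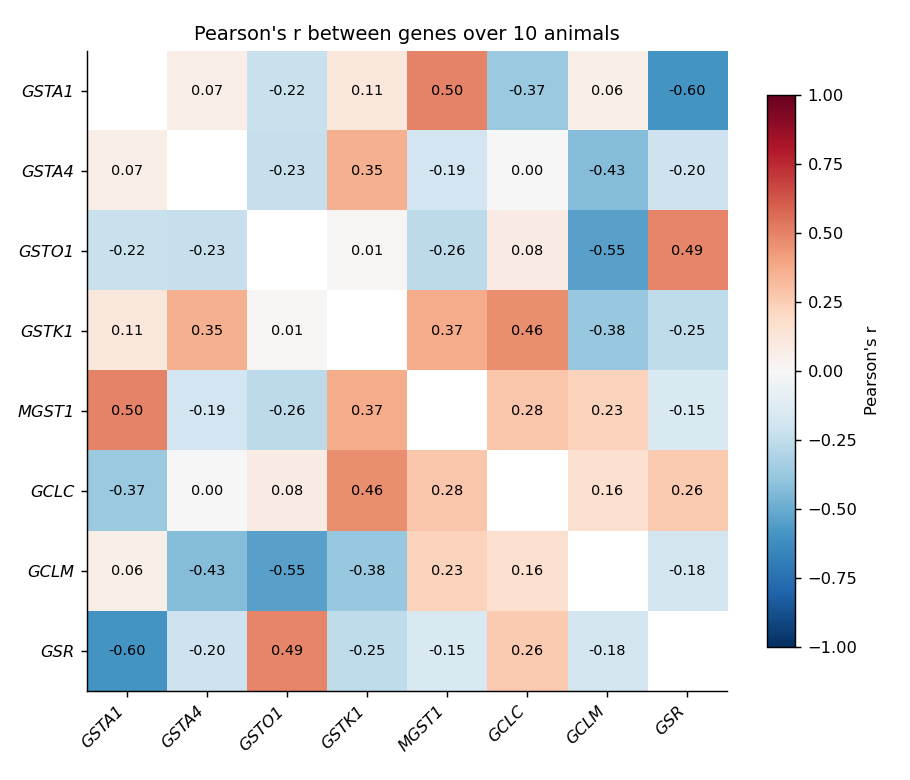
Pearson's r of the log2 signal over 10 animals for each pair of the 8 members, from -1 (blue) to 1 (red). The lowest value is that of *GSR* with *GSTA1* (-0.60), the highest that of *GSTA1* with *MGST1* (0.50), and 13 of the 28 pairs are negative.

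The animals themselves differed in which members were high or low. H5 had the highest *GCLC* and *GSR* and the lowest *GSTA1*, and its mean distance from the member means, 1.15 SD units, was the largest of the 10 animals. L4 had the highest *GSTA1*, *GSTK1* and *GSTO1*, whereas H4 had the lowest *GCLC* and *MGST1*. L1 had the highest *GCLM* and the lowest *GSR* and *GSTO1*, and it also had the largest difference between the 3' and 5' control probe sets of *GAPDH*, 2.70 on the log2 scale against 1.68 to 2.39 in the others. This difference grows with RNA degradation. The median correlation of an array with the others was between 0.969 and 0.979, and no array stood apart over all probe sets.

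Markers of liver cell types and RNA quality were set beside the members, because in RNA of whole liver fewer cells of a type and less RNA per cell cannot be told apart. The 12 hepatocyte markers tested, among them *ALB* and *APOA1*, averaged 14.73 to 14.91 in the H animals and 14.81 to 14.92 in L, so the labelled tissue shows its defining markers at high signal. Of the bile duct markers *KRT19*, *SOX9*, *CFTR* and *TFF3* had a mean under 4, and 4 others, including *SPP1*, averaged 7.07 to 7.81 in H and 6.70 to 7.59 in L. Macrophage markers (7 tested) averaged 9.31 to 9.98 in H and 9.46 to 9.87 in L. In each of the 8 marker lists 0 genes passed limma's adjusted or unadjusted p under 0.05 between H and L.

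Over 72 relations between a member and a marker list or the *GAPDH* difference, 0 passed after adjustment. An unadjusted permutation p was under 0.05 for 3 by Pearson's r and 4 by Spearman's rho, or 5 by either. Chance alone puts about 1 in 20 relations under 0.05, so counts of 3 and 4 by 1 measure do not stand out. The mean of the 6 pericentral markers tested, which ran from 9.37 to 9.83 in H and from 9.35 to 10.10 in L, was related to *GSR* with a negative sign (r = -0.78, permutation p = 0.00755, adjusted 0.302; rho = -0.76, permutation p = 0.0145, adjusted 0.523). Its relation to *GSTO1* was also negative (r = -0.76, permutation p = 0.0103, adjusted 0.302; rho = -0.68, permutation p = 0.0355, adjusted 0.708). Without L1 and L3 the values of r were -0.67 and -0.57. The pericentral level is also an unweighted mean, and it leans on *RHBG* (SD 0.97) and *SLC1A2* (SD 0.94), where the other markers had an SD of 0.22 to 0.47. *RHBG* averaged 4.19, close to the filter of 4. The *GAPDH* difference and *GSTO1* had r = -0.77 and rho = -0.49 (permutation p = 0.0126 and 0.156; adjusted 0.302 and 0.828), which was -0.24 for r without H2 and L1. *GSTA1* and the hepatocyte markers had r = 0.58 and rho = 0.83 (permutation p = 0.0817 and 0.00453; adjusted 0.758 and 0.326), with r = 0.81 without H1 and L4. *GSTO1* and the 8 periportal markers tested had r = -0.37 and rho = -0.67 (permutation p = 0.305 and 0.0393; adjusted 0.758 and 0.708), and r was -0.19 without H3 and H5. The periportal level is an unweighted mean. In it *SDS* had an SD of 2.31 over the animals and the other markers 0.18 to 0.51, so it leans on that 1 gene. The part of zonation, cell composition or RNA quality in the spread of these members was not tested.

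The other genes of glutathione metabolism were taken from 7 lists of 104 genes, of which 53 were tested. Of these 29 were higher and 24 lower in H, and the median difference was 0.04 on the log2 scale against -0.04 over all genes. In limma 0 passed the adjusted p and 1 had an unadjusted p under 0.05, a level that 2.64% of all genes reached. Of the other transferases 3 of 17 were tested: *MGST3* (0.13, SE 0.13), *GSTZ1* (0.10, SE 0.31), the zeta-class enzyme of tyrosine breakdown, and *GSTM3* (-0.01, SE 0.52). None passed the test.

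Of the genes for the last step of synthesis, breakdown and salvage, 5 of 14 were tested, 1 was higher and 4 lower in H, and none passed. Glutathione synthetase, *GSS*, which adds the glycine, averaged 7.53 ± 0.03 in H against 7.59 ± 0.10 in L (SD, n = 5 per group). The smallest p-values of this list were those of the peptidases *CNDP2* (-0.32, SE 0.28) and *ANPEP* (-0.38, SE 0.34), which split products of glutathione breakdown. Of the peroxidases, glutaredoxins, glyoxalases and other enzymes whose reactions involve glutathione, 12 of 15 were tested, 8 were higher and 4 lower, and none passed. The glutaredoxins *GLRX* (-0.24, SE 0.19) and *GLRX3* (-0.13, SE 0.11) had the smallest p-values there.

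A list covering the methionine cycle, transsulfuration and the uptake of cysteine and glutamate had 11 of 15 genes tested. Of these 10 were higher in H, where 37.2% of all genes were, with a median difference of 0.15 on the log2 scale. None passed the test. The periportal markers ran the same way, with 7 of 8 higher in H and a median difference of 0.14. Their mean ran from 11.30 to 12.42 in the H animals and from 11.45 to 12.29 in L. This mean leans on *SDS*, whose SD over the animals was 2.31 against 0.18 to 0.51 for the other markers. The part of the periportal markers in the values of this list was not tested. *CTH*, cystathionine gamma-lyase, which releases cysteine in transsulfuration, averaged 14.11 ± 0.29 in H against 13.77 ± 0.37 in L (SD, n = 5 per group), a difference of 0.33 (SE 0.19, limma adjusted p = 0.985). *MAT2B*, a subunit of methionine adenosyltransferase, differed by 0.15 (SE 0.09). Only *SLC1A5* was lower in H in this list (-0.06, SE 0.13). The genes of a list share animals and pathways and are not independent, and the list was not tested as a group.

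Of the enzymes that make NADPH for glutathione reductase, 6 of 11 were tested, 2 were higher and 4 lower in H. *PGD*, 6-phosphogluconate dehydrogenase of the pentose phosphate pathway, averaged 6.45 ± 0.08 in H against 6.71 ± 0.20 in L (SD, n = 5 per group), a difference of -0.26 (SE 0.10). It was the 1 gene of all lists with an unadjusted p under 0.05 in limma. As 2.64% of all genes reached that level, 1 such gene does not stand out. *PGD* did not pass after adjustment (limma adjusted p = 0.985) and its groups overlapped. *NFE2L2* (NRF2), the factor that induces *GCLC*, *GCLM*, *GSR* and several transferases, had no probe set under its own symbol. Of the list of this factor, its partners and its known targets 14 of 25 genes were tested, 4 were higher and 10 lower in H with a median difference of -0.06, and none passed. *HMOX1*, heme oxygenase, differed by -0.32 (SE 0.16) and *TXNRD1*, thioredoxin reductase, by -0.14 (SE 0.12). For the export of conjugates 3 of 10 genes were tested, 2 higher and 1 lower, and none passed: *ABCG2* differed by 0.19 (SE 0.20) and *ABCC2*, the canalicular pump for glutathione conjugates, which is also in the list of targets, by -0.07 (SE 0.15).

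For the 3 members with the largest SD, the genes whose signal was most like theirs over the 10 animals were read from all genes tested. These r values were picked as the highest over all genes, come from the same arrays and carry no test. For *GSTA4* they were *RIDA* (r = 0.87), *FBXO3* (0.82) and *LACC1* (0.82). For *GCLC* they were *AMCF-II* (r = 0.92), *ACTR6* (0.90) and *SLC35A3* (0.90), and for *GSTK1* they were *FDX1* (r = 0.95), *QDPR* (0.93) and *RNLS* (0.93). No gene was among the 3 most alike of more than 1 of these members.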

How the data were processed

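Liver RNA of 10 female pigs, 5 in H and 5 in L, was measured on 1 Affymetrix GeneChip Porcine array each. Per the methods, the authors scanned with GCOS, then corrected the background and normalized with GCRMA, and the submitters' processing notes also name RMA, in each case with a version not given in the sources used here. Values as deposited are log2 signals of 24123 probe sets, used without a further normalization; all 10 columns were used. The background correction leaves undetected probe sets at a common lowest value of 2.19, which understates differences between dim probe sets. Array medians lay between 3.78 and 3.85 and maxima between 15.86 and 16.00. Arrays give no depth, and their number limits the precision. No genome build is named for the probe sets, so no coordinates or sequences are given.

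Controls (124) were left out, and 10069 of the other 23999 probe sets carried 1 symbol, 9961 of them through a reference name table by Entrez ID and 108 from the platform annotation alone, while 198 carried several and 13732 none. They stand for 6765 genes. Of them 6014 average 4 or more and were combined by their mean per gene, which left 4730 genes, and single probe sets were tested among all 11756 with such a mean, named or not. The contrast of H with L was fitted without covariates by limma (version 3.58.1, R 4.3.3) with moderated two-sided tests, Benjamini-Hochberg adjustment over all genes and a threshold of 0.05, and the script was tested on simulated data. A difference is H minus L on the log2 scale with limma's moderated SE. Correlations over animals used scipy 1.17.1, pandas 2.3.3 and numpy 2.4.6 in Python 3.11.15 and two-sided permutation tests of 100000 resamples (exact below 10 animals) and Benjamini-Hochberg adjustment over the 28 pairs or the 72 marker relations, for r and rho each. Figures were drawn with matplotlib 3.10.9.

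The members and the gene lists were chosen with earlier results of these data known. The text names every member, of each pathway list the genes with an unadjusted p under 0.05 (at most 4) or else the 2 with the smallest p, and for the 3 members with the largest SD the 3 genes with the highest r; *GSS*, *GSTM3*, *SLC1A5* and single markers were added with their values known. Alternatives comprised other filters, normalizations, weights, covariates, priors and probe set rules, Spearman's rho, centred groups and leaving out each animal. Kinship was not modelled, so p-values take the animals as independent.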

Additional observations from a re-analysis of the deposited data

Results flagged for a closer look

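In 2 of 16 combinations of a member and a group, 1 animal lay apart from the other 4, by Dixon's ratio of its gap to the nearest animal over the range of the group, against a 95% limit of 0.71. Both concern H5, which had a log2 signal of 8.12 for *GSR* (ratio 0.73) and 14.23 for *GSTO1* (ratio 0.88). The *GSR* value is a mean of 2 probe sets. In the brighter one H5 was at 10.00 and H2 at 9.90, and in the dimmer one H5 was at 6.24 and H3 at 5.69. The ratio was not taken for each probe set, so the *GSR* flag holds for their mean only. Chance alone flags about 1 in 20 groups. For *GSTO1* the other 4 H animals lay between 14.10 and 14.12, so the gap is 0.11 on the log2 scale, and L4 was higher (14.25). H5 had a *GAPDH* 3' minus 5' difference of 1.76, within the range of the other animals.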

How the results depend on the processing

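Under every alternative run, limma called 0 members and 0 genes between H and L after adjustment, and 0 pairs of members co-varied after adjustment. Genes at an unadjusted p under 0.05 numbered 125, and from 90 (without L4) to 281 (without L2) over all settings, with 213 without H2. Among the members only *GSTA1* without H2 had an unadjusted limma p under 0.05 (difference -0.64, adjusted p = 0.863). The differences of *GCLM*, *GSR*, *GSTA1* and *MGST1* kept their sign in all settings. That of *GCLC* turned with array weights (0.00101) and with the brightest probe set (0.0606), and ranged from -0.30 to 0.12 leaving out 1 animal; that of *GSTO1* turned with the *GAPDH* difference as a covariate (-3.78e-05) and ranged from -0.0456 to 0.0381 leaving out 1 animal. Leaving out 1 animal, the difference of *GSTA4* ranged from -0.18 to 0.66 and that of *GSTK1* from -0.20 to 0.23; the cause was not tested. Of the SDs over the animals, those of *GSTA1* (0.34 without H5), *GSTK1* (0.31 without L3) and *GSTO1* (0.06 without L1) moved beyond their limit. With the animal number as a replicate block limma called 0 genes and 0 members, and 140 genes had an unadjusted p under 0.05. Animals with the same number correlated with r of 0.08, -0.24, -0.10, 0.28 and 0.02 in their deviations from the group means. These values cannot tell whether animals of the same number are related, which the sources used here do not say. Signal over background limits the 6 dim probe sets left out.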
